A study of Rattus norvegicus with 36 samples.

Results

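The muscle nicotinic acetylcholine receptor is represented on these arrays by 5 probe sets, 1 for each of its subunit genes, of 8799 probe sets in all, and by 5 genes of 4736 with a single symbol. Chrna1 (probe set X74832cds_at), Chrnb1 (X74833cds_at), Chrnd (X74835cds_at), Chrng (X74834cds_s_at) and Chrne (X74836cds_s_at) were taken by their gene symbol in the platform annotation. The family was chosen because of its signals in these same arrays, so the values of the 5 genes are a description and carry no test here. All 5 probe sets passed the filter on dim signals, which asked for at least 4 arrays above a floor of 129.5 signal units.

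The study followed rat skeletal muscle after one bout of resisted contractions, on 36 one-colour arrays that hold 18 numbered samples with 2 arrays each. The source label names the muscle only as "ta". Exercised muscle gave polysomal RNA (transcripts attached to ribosomes) at 6 h from 4 numbers, total RNA at 6 h from 4 numbers, polysomal RNA at 1 h from 2 numbers and total RNA at 1 h from 2 numbers. Exercised groups whose title and description name no polysomes are called total RNA. Muscle whose labels mention no contractions gave 4 numbers of polysomal RNA, called the polysomal control, and 2 numbers titled 1hr polysome. The description of those 2 numbers mentions no polysomes, so their fraction is not settled. They appear here under their title, as the control titled 1hr polysome. Both control groups are described as collected at 1 h. No genotype, strain or age is given. The labels do not say whether numbers are separate animals, or whether the arrays of a number come from separate muscles, so the p-values rest on a sample-to-sample spread that may be technical.

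The receptor is a ring of subunits in the muscle membrane under the nerve ending, where it opens a cation channel when acetylcholine binds. The alpha subunit (Chrna1) carries the binding sites together with its neighbours, and the beta (Chrnb1) and delta (Chrnd) subunits are part of every muscle receptor. The gamma subunit (Chrng) belongs to the fetal receptor and to the receptor of denervated muscle, and the epsilon subunit (Chrne) replaces it at the adult synapse. In innervated fibres the subunit genes are transcribed mostly by the nuclei beneath the synapse, and loss of the nerve or of electrical activity raises their transcription along the fibre. E-boxes bound by myogenic factors such as myogenin, and the N-box bound by ETS-family factors, are the best known elements of their promoters.

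For 4 of the genes the RefSeq promoter window of the rat build GRCr8, 250 bases before to 50 after the annotated gene start, is shown because the alpha and delta genes differed most between groups while the gamma and epsilon genes differed less. The platform files name no genome build. Capitals mark E-boxes (CANNTG, its own reverse complement) and N-boxes (CCGGAA, searched on both strands). No E-box overlapped an N-box. The alpha window is chr3:78877304-78877603, minus strand. The delta window is chr9:95310066-95310365, plus strand, and the gamma window, chr9:95325734-95326033, plus strand, belongs to the next annotated gene, with 0 genes in the 7249 bases between both genes. The epsilon window is chr10:55834105-55834404, minus strand.
Chrna1: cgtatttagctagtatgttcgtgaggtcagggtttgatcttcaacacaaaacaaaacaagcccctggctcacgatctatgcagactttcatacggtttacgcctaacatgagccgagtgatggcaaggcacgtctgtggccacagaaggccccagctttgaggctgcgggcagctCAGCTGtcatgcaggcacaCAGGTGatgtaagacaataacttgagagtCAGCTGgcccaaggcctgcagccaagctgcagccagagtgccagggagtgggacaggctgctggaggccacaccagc
Chrnd: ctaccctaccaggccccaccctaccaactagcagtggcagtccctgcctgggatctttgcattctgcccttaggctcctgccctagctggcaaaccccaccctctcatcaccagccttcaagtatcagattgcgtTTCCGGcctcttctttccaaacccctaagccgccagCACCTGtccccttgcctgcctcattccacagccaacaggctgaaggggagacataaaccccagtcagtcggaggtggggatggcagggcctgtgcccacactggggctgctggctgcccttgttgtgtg
Chrng: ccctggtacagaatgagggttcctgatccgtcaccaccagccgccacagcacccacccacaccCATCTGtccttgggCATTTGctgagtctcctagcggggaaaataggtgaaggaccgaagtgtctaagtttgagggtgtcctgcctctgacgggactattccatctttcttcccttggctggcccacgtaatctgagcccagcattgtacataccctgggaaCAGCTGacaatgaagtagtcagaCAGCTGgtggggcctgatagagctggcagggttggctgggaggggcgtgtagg
Chrne: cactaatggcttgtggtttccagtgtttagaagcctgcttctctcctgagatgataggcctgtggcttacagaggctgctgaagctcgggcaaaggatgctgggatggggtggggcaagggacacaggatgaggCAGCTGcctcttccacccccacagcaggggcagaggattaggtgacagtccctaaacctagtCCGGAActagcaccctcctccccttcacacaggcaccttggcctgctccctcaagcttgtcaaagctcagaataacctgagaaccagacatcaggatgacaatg

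The alpha window held 3 E-boxes, of which 2 read CAGCTG, beginning 75, 56 and 27 bases before the start. The gamma window held 4 E-boxes, again 2 of them CAGCTG, 26 and 3 bases before the start. The beta window, chr10:55015058-55015357 on the minus strand, held 3 E-boxes. The delta and epsilon windows held 1 E-box each, and they were the windows among the 5 with an N-box, which began 115 bases (delta, on the opposite strand) and 54 bases (epsilon) before the start. Of 33465 RefSeq windows, 72.1% held at least 1 E-box, 16.6% at least 3, 5.79% at least 4, 1.69% at least 2 copies of CAGCTG, and 15.0% at least 1 N-box. These matches describe letters, and single E-boxes and N-boxes are common in such windows.

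Facts of the whole set bear on the subunits as follows. The 9 tested muscle fibre markers summed to between 42005 and 314912 on every array, but not each of them was bright. Myh4, fast myosin, stayed at 14401 or above, whereas Ckm, creatine kinase, was below the floor on 6 of 8 polysomal 6 h arrays and 5 of 8 polysomal control arrays. Acta1, skeletal actin, was below it on 2 of 8 arrays in each of those groups and reached 24154 and 40019 on others, and Ttn, titin, was below it on most arrays. The beta-actin 3′ to 5′ probe ratio, a sign of RNA integrity and labelling, was 2.54 to 4.48 in polysomal 6 h, 1.0 to 11.5 in total 6 h, 2.0 to 4.28 in polysomal 1 h and 1.22 to 1.62 in total 1 h. It was 1.58 to 3.88 in the polysomal control and 1.07 to 2.73 in the control titled 1hr polysome. Number 3 of total 6 h stood apart, with ratios of 9.01 and 11.5, and so did array 2b of the control titled 1hr polysome, which correlated at 0.897 with its partner array, the lowest of the 18 pairs. Fewer cells of a type and less RNA per cell cannot be told apart in such tissue RNA.

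Chrna1, the alpha subunit, was high in total RNA 1 h after contractions and in no other group. Its signals in total 1 h were 2981 and 2604 for number 1 and 17801 and 16455 for number 2. They ran from 401 to 997 (median 540.5) on the 8 polysomal 6 h arrays and from 381 to 774 (median 643) on the 8 total 6 h arrays. On the polysomal 1 h arrays they were 469, 465, 476 and 332. On the polysomal control arrays they ran from 379 to 954 (median 658), and the arrays of the control titled 1hr polysome had 654, 426, 404 and 633. The 4 total 1 h arrays thus lay above all 32 others, and the signals of its 2 numbers stood further apart than the means of any other groups.

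**Figure D1:**
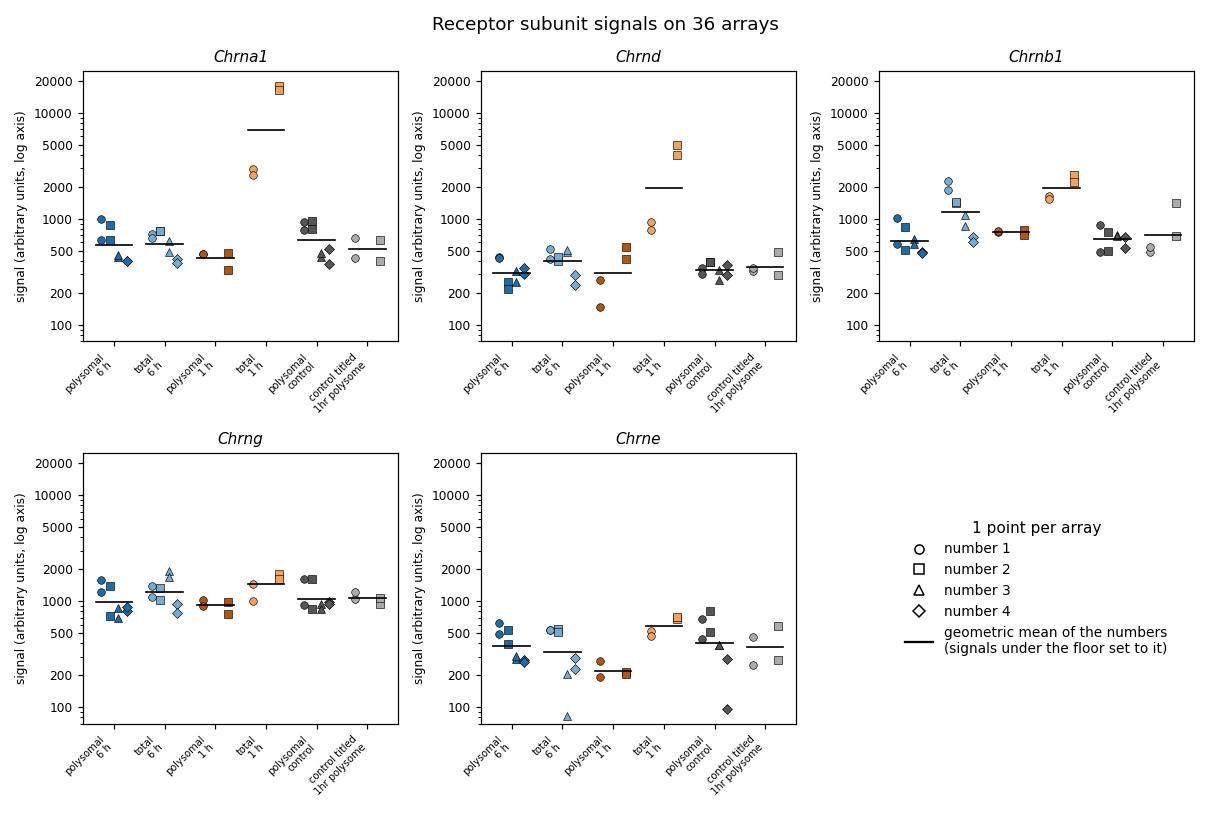
Array signals (arbitrary units, log axis) of the 5 receptor subunit probe sets in the 6 groups, 1 point per array, with the shape giving the number and the bar the geometric mean of the numbers. The alpha signals of total 1 h lie between 2604 and 17801, against 332 to 997 on the other 32 arrays, and the delta panel has the same shape at lower signals.

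Chrnd, the delta subunit, had the same pattern on a smaller scale. Its total 1 h signals were 934 and 785 for number 1 and 5016 and 3982 for number 2. The polysomal 1 h arrays had 147, 263, 416 and 546, and the arrays of the control titled 1hr polysome had 325, 344, 293 and 488. The range was 218 to 435 (median 314) on polysomal 6 h arrays, 241 to 515 (median 428) on total 6 h arrays and 267 to 394 (median 337) on polysomal control arrays. Here too the 4 total 1 h arrays lay above the other 32, which reached 546. How many of all genes lay so was not computed, so nothing is read from this for Chrna1 or Chrnd.

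Chrnb1, the beta subunit, was bright in total RNA at both times. Its total 1 h signals were 1634 and 1532 for number 1 and 2578 and 2214 for number 2. Total 6 h arrays ran from 606 to 2271, with 2271 and 1895 for number 1, 1419 and 1450 for number 2, 855 and 1096 for number 3, and 673 and 606 for number 4. The polysomal 6 h arrays ran from 477 to 1019 (median 578), the polysomal 1 h arrays had 748, 767, 781 and 699, and the polysomal control ran from 489 to 875 (median 687). The control titled 1hr polysome had 485, 543, 687 and 1420, the last on array 2b, which stood apart. Total RNA at 6 h therefore overlapped with both total 1 h and the polysomal groups.

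Chrng, the gamma subunit, varied least. Its signals were 1444, 1015, 1820 and 1616 in total 1 h, 1036, 902, 992 and 761 in polysomal 1 h and 1040, 1211, 941 and 1071 in the control titled 1hr polysome. They were 688 to 1582 (median 874) in polysomal 6 h, 768 to 1912 (median 1219.7) in total 6 h and 851 to 1617 (median 940.2) in the polysomal control. The highest array of all, at 1912, belonged to number 3 of total 6 h, and the ranges of most groups overlapped.

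Chrne, the epsilon subunit, had 525 and 474 in number 1 and 681 and 707 in number 2 of total 1 h. The polysomal 1 h arrays were lower, at 270, 191, 215 and 207, and the control titled 1hr polysome had 463, 250.5, 281.5 and 584. The ranges were 264 to 618 (median 348) in polysomal 6 h, 82.2 to 544 (median 400.5) in total 6 h and 97.1 to 813 (median 415) in the polysomal control. The lowest value of each of the last pair of ranges lay under the floor and entered the fit as 129.5. The probe sets of the gamma and epsilon genes carry the suffix s, which the platform's maker gives to probe sets whose probes can match other transcripts as well.

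Ordered by group mean, total 1 h was the highest group for all 5 subunits. The share of all genes with their highest mean in total 1 h was not computed. As the family was chosen for its signals in these arrays, nothing is read from that count. The gap to the next group was 3.46 on the log2 scale for Chrna1 and 2.29 for Chrnd, above the larger of both groups' SDs (1.85 and 1.69). For Chrnb1 the gap of 0.74 to total 6 h was about as large as the SD of 0.73, and for Chrng and Chrne the gaps of 0.24 and 0.55 were smaller than the SDs of 0.44 and 0.78. Below total 1 h, neighbouring groups differed by less than the larger SD for Chrnb1, Chrnd, Chrng and Chrne. For Chrna1 the one larger gap there, 0.26, was between the control titled 1hr polysome and polysomal 1 h, whose SDs were 0.04 and 0.16.

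The 1 h comparison of total RNA used the control titled 1hr polysome, uncontracted muscle described for the same time. Chrna1 was 13.4-fold higher, with geometric means of 6905 in total 1 h and 517 in the control (log2 difference 3.74 ± 0.63 SE, 2 numbers in each group, limma fit over all 6 groups). The log2 difference was 2.46 ± 0.57 for Chrnd, 1.45 ± 0.43 for Chrnb1, 0.66 ± 0.58 for Chrne and 0.44 ± 0.32 for Chrng. The number means of all 5 genes did not overlap, as was so, in the same direction, for 25.8% of all genes. For Chrna1, Chrnb1 and Chrnd no total 1 h array overlapped with a control array. The share of all genes without such overlap was not computed, so nothing is read from this. In rank from the highest difference of 3903 genes, Chrna1 was at 3, Chrnd at 15, Chrnb1 at 63, Chrne at 355 and Chrng at 648.

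**Figure D2:**
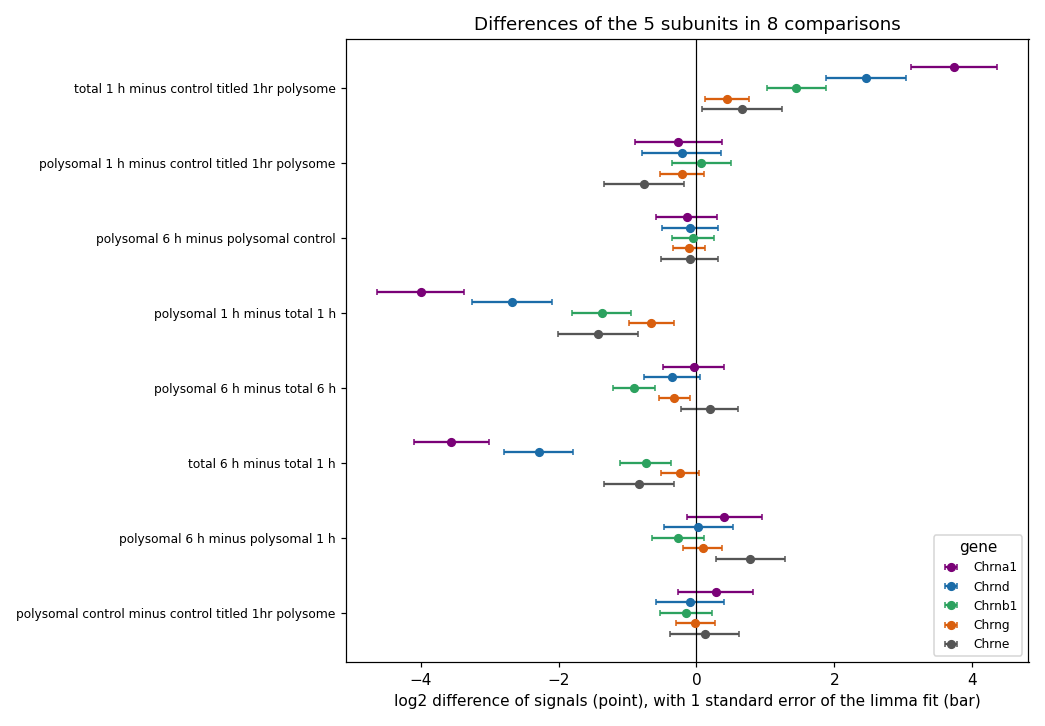
Log2 differences of the 5 subunits (points, x axis) in the 8 comparisons (rows), with 1 SE of the limma fit as bars. Chrna1 and Chrnd stand at 3.74 and 2.46 in total 1 h minus the control titled 1hr polysome, and at −4.0 and −2.68 in polysomal 1 h minus total 1 h, while all 5 points of polysomal 6 h minus the polysomal control lie between −0.14 and −0.05.

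The numbers of total 1 h did not contribute equally. With number 1 as the only total 1 h sample, the log2 difference was 2.43 for Chrna1, 1.27 for Chrnd, 1.15 for Chrnb1, 0.43 for Chrne and 0.19 for Chrng. With number 2 alone it was 5.05, 3.65, 1.75, 0.90 and 0.69 for the same genes. Each subunit was thus higher in number 2, and the order of the genes was the same in both numbers. Without array 2b of the control the differences were 3.90 for Chrna1, 2.64 for Chrnd, 1.71 for Chrnb1, 0.93 for Chrne and 0.49 for Chrng.

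Of the 5 subunit probe sets 1, Chrna1, passed an adjusted p of 0.05 in this comparison. Over all 3903 genes tested, 0.0512% were called higher and 0% lower, and 745 of the 6707 probe sets had an unadjusted p under 0.05. Because the subunits were chosen on this contrast, nothing is read from that count or from the ranks. The call ended when number 2 of total 1 h, or either number of the control, was left out, with Chrna1 differences of 2.43 without number 2 of total 1 h, 3.77 without number 1 of the control and 3.71 without number 2. It also ended with the floor at the 20th percentile and with no filter on dim probe sets. The fraction named in the control's title differs from total RNA, so contraction and RNA fraction cannot be told apart in this comparison.

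Polysomal RNA at 1 h did not hold the high signals of total RNA. Against total 1 h, Chrna1 was 16.0-fold lower in polysomal RNA, with geometric means of 431 in polysomal 1 h and 6905 in total 1 h (log2 difference −4.0 ± 0.63). Chrnd differed by −2.68 ± 0.57, Chrne by −1.43 ± 0.58, Chrnb1 by −1.38 ± 0.43 and Chrng by −0.65 ± 0.32. The polysomal number means of all 5 genes lay below the total ones without overlap, as did those of 27.8% of all genes. Of the subunits 1, Chrna1, passed the test, where 0.179% of genes were called higher and 0.154% lower, a count from which again nothing is read. Without number 2 of total 1 h the Chrna1 difference was −2.69 and without number 2 of polysomal 1 h it was −3.89, and both ended the call. The beta-actin 3′ to 5′ ratio was higher in polysomal 1 h (2.0 to 4.28) than in total 1 h (1.22 to 1.62), and its part in these differences was not tested.

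Polysomal 1 h was also compared with the control titled 1hr polysome. The fraction of that control is not settled, so a change on ribosomes cannot be told apart here from a difference of RNA fraction. Chrna1 differed by −0.26 ± 0.63, Chrnd by −0.22 ± 0.57, Chrng by −0.21 ± 0.32 and Chrnb1 by 0.07 ± 0.43. Chrne was lower by more, at −0.76 ± 0.58, with a 95% interval of −2.01 to 0.48. With the polysomal control in place of the control titled 1hr polysome, the Chrna1 difference was −0.54. In the limma fit 0% of genes were called in either direction and 299 probe sets had an unadjusted p under 0.05. None of the 5 subunits was called.

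In total RNA the subunit means were lower 6 h than 1 h after contractions. Chrna1 was 11.8-fold lower at 6 h than at 1 h, with geometric means of 586 in total 6 h and 6905 in total 1 h (log2 difference −3.56 ± 0.54, 4 and 2 numbers). It was the lowest difference among the 3903 genes, and Chrnd, at −2.29 ± 0.50, ranked 3 from the lowest. Chrne differed by −0.83 ± 0.51, Chrnb1 by −0.74 ± 0.37 and Chrng by −0.24 ± 0.28, and their groups overlapped. The share of genes called was 0% higher and 0.0256% lower, and Chrna1 was that 1 gene. Because the subunits were chosen for their signals in these arrays, nothing is read from these ranks or from this call. The call ended without number 2 of total 1 h (−2.25) and without number 2, 3 or 4 of total 6 h (−3.69, −3.53 and −3.38), and with the floor at the 20th percentile. No control that is total RNA by both title and description is among these arrays, so the level before contractions is not known for total RNA.

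In polysomal RNA no subunit passed the test against a control at either time, the 1 h control being polysomal by its title only. Between polysomal 6 h and the polysomal control the log2 differences were −0.14 ± 0.44 for Chrna1, −0.10 ± 0.41 for Chrnd, −0.05 ± 0.30 for Chrnb1, −0.11 ± 0.23 for Chrng and −0.10 ± 0.41 for Chrne. All groups overlapped, and the 95% intervals ran from −1.09 to 0.81 for Chrna1 and from −0.59 to 0.38 for Chrng, so changes within them cannot be told from none. Numbers pair these groups, and with the number as a block the intervals were −0.93 to 0.66 for Chrna1, −0.57 to 0.48 for Chrnb1, −0.79 to 0.60 for Chrnd, −0.60 to 0.38 for Chrng and −0.62 to 0.43 for Chrne. By number, Chrna1 differed by −0.13, −0.23, −0.05 and −0.15, lower in 4 of 4 pairs by little, while the other subunits had both signs. Of all genes 0.384% were called higher and 0% lower (380 probe sets had an unadjusted p under 0.05), and 0 of the 5 subunits were among them. Between polysomal 6 h and polysomal 1 h Chrne differed by 0.78 ± 0.51, Chrna1 by 0.40 ± 0.54, and the other subunits by −0.27 to 0.09. There 0% of genes were called and 366 probe sets had an unadjusted p under 0.05. Between both controls the differences ran from −0.15 to 0.28, with 0% of genes called and 367 probe sets under an unadjusted p of 0.05.

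At 6 h the largest polysomal minus total difference among the subunits was that of beta. Chrnb1 had geometric means of 621 in polysomal 6 h and 1165 in total 6 h (log2 difference −0.91 ± 0.30, 4 numbers each). The number means overlapped, with 770 in number 1 of polysomal 6 h and 638 in number 4 of total 6 h. Matched by number, though pairing is not established for these groups, the differences were −1.43, −1.13, −0.67 and −0.41. The other log2 differences were −0.36 ± 0.41 for Chrnd, −0.32 ± 0.23 for Chrng, −0.04 ± 0.44 for Chrna1 and 0.19 ± 0.41 for Chrne. In this comparison 4.38% of genes were called higher and 4.94% lower, and 0 of the 5 subunits were called. The median of all genes was −0.14 as deposited, −0.02 after quantile normalization and −0.04 after scaling to the 75th percentile, with 171 genes higher and 193 lower as deposited, 210 and 99, and 219 and 88. Chrnb1 was −0.80 and −0.75 under both scalings, whereas the sign of Chrna1 turned to 0.12 and 0.11. Without number 3 of total 6 h, Chrne was −0.15 and Chrnb1 −1.0. The change of the polysomal minus total difference between both times, 6 h minus 1 h, was 3.96 ± 0.77 for Chrna1, 2.32 ± 0.70 for Chrnd, 1.62 ± 0.71 for Chrne, 0.47 ± 0.53 for Chrnb1 and 0.33 ± 0.39 for Chrng, with 0 probe sets of the whole array past the adjusted threshold and 372 under an unadjusted p of 0.05.

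A second pattern separated numbers rather than groups. In polysomal 6 h, total 6 h and the polysomal control, the last described as 1 h, the first arrays of numbers 1 and 2 are titled without a letter, and those of numbers 3 and 4 with one. Chrna1 signals were 626 to 997 in numbers 1 and 2 and 401 to 455 in numbers 3 and 4 of polysomal 6 h. They were 668 to 774 and 381 to 619 in total 6 h, and 792 to 954 and 379 to 525 in the polysomal control. Chrne signals were 393 to 618 and 264 to 303 in polysomal 6 h, 508 to 544 and 82.2 to 293 in total 6 h, and 441 to 813 and 97.1 to 389 in the polysomal control. Neither gene overlapped between the pairs of numbers in any of the 3 groups, whereas Chrnd and Chrng overlapped in all 3 and Chrnb1 did not overlap in total 6 h. Of all 3903 genes, 1.36% lay higher in numbers 1 and 2 without overlap in all 3 groups, as Chrna1 and Chrne did, and 0.641% lay lower. By group the shares higher were 6.41% in polysomal 6 h, 11.9% in total 6 h and 8.28% in the polysomal control, so the split was not particular to the subunits.

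**Figure D3:**
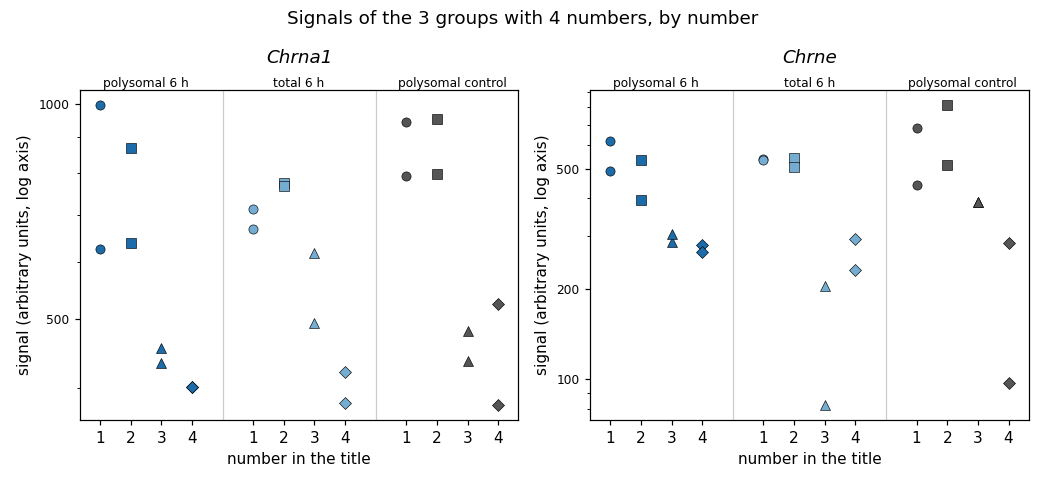
Signals (log axis, arbitrary units) of the alpha and epsilon subunit genes on each array of polysomal 6 h, total 6 h and the polysomal control, by the number in the title. In each of the 3 groups every array of numbers 1 and 2 lies above every array of numbers 3 and 4.

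Inside the pairs of numbers, the polysomal 6 h minus polysomal control difference of Chrna1 was −0.18 with numbers 1 and 2 and −0.10 with numbers 3 and 4. Those of Chrne, by number, were 0.01, −0.49, −0.40 and 0.50, and those of Chrnd 0.43, −0.73, −0.04 and −0.04. Their small means thus average values of both signs. The 2 arrays of a number differed by up to 1.55 for Chrne and 0.84 for Chrnd on the log2 scale, so nothing is read from these signs. Chrnb1 was −1.28 against total RNA with numbers 1 and 2 and −0.54 with numbers 3 and 4. Myogenin (Myog), an E-box factor, split in the same way in polysomal 6 h, with 2742 to 3546 in numbers 1 and 2 and 793 to 1515 in numbers 3 and 4. In the polysomal control Myog had 1101 to 1689 and 75.1 to 619, while in total 6 h the pairs of numbers overlapped. The GAPDH 3′ to 5′ probe ratio was 0.037 to 0.511 in numbers 1 and 2 and 0.482 to 1.19 in numbers 3 and 4 of the polysomal control. It was 0.070 to 1.30 and 0.909 to 1.16 in polysomal 6 h, and 0.878 to 1.09 and 0.538 to 11.4 in total 6 h. What set these numbers apart, and the part of this ratio in it, was not tested.

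Across the 18 number means, correlations describe which genes had a like course, with points that share fractions and arrays. Chrna1 and Chrnd correlated at 0.91, but at 0.25 over the 16 numbers without total 1 h. Chrna1 and Chrne correlated at 0.61 over 18 numbers and at 0.80 over 16. The genes most like Chrna1 were Sp1 (a zinc finger transcription factor, 0.92), Chrnd and Pik3c3 (the class III phosphatidylinositol kinase, 0.89), and without total 1 h the values for Sp1 and Pik3c3 were 0.11 and 0.18. Most like Chrnd were Chrna1, Apod (apolipoprotein D, 0.91) and Ampd3 (an AMP deaminase, 0.90). Chrnb1 had like genes whose correlations held outside total 1 h, namely Mat2a (which makes S-adenosylmethionine, 0.94 and 0.92 without), Zfp260 (0.94 and 0.91) and Clcn1 (the muscle chloride channel, 0.93 and 0.90). For Chrng they were Kcnh5, Trdmt1 and Slc14a2 (0.87, 0.86 and 0.86), and for Chrne Cdc5l, Rpa2 and Oma1 (0.86 each). Signals under the floor of 129.5 entered these correlations as the floor. Sp1 was under it on every array of polysomal 6 h and of both controls, with 120 to 191 in total 1 h. Pik3c3 had medians of 90.0 to 95.5 outside total 1 h. Ampd3, Zfp260 and Clcn1 had medians under the floor in polysomal 1 h, polysomal 6 h and both controls. These likenesses thus rest in part on dim signals.

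Other genes of the neuromuscular junction and of receptor gene control were taken from 6 lists of 120 genes, of which 70 were tested. In total 1 h against the control titled 1hr polysome, 0 of the 70 passed the test. The 20 tested regulators of receptor gene transcription had a median log2 difference of 0.61, with 9 under an unadjusted p of 0.05 in the limma fit. The 15 tested genes known to rise after denervation had 0.43, with 5. The median over all genes was 0.01, and 435 of 3903 (11.1%) were under that unadjusted p. The regulators include Egr1, Jun, Junb, Jund and Fos, factors not particular to receptor genes. Both lists were chosen with earlier results of these data known, so nothing is read from these counts. For the 10 tested genes of agrin signalling and receptor clustering the median was 0.16, for 5 of the dystrophin complex 0.15, for 10 of acetylcholine metabolism and release 0.09, and for 12 neuronal nicotinic and muscarinic receptors 0.06. The largest differences among E-box factors were 2.65 ± 1.09 for Myog (adjusted p = 0.363) and 1.86 ± 0.46 for Myf6 (adjusted p = 0.166), and Myod1 had 0.43 ± 0.42 (adjusted p = 0.788).

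Some of these genes differed between the total 1 h numbers in the direction of the subunits, and others did not. Myog had 1044 and 1248 in number 1 and 2936 and 3206 in number 2 of total 1 h, and 354, 158, 237 and 589 in the control titled 1hr polysome. Runx1, a transcription factor that rises in denervated muscle, had 1336 and 892 in number 1 and 5076 and 4316 in number 2, against 1096, 1317, 914 and 657 in that control. Ankrd1, a stretch-responsive ankyrin repeat protein, had 4153 and 5158 in number 1 and 16925 and 21397 in number 2, against 1661, 1039, 1023 and 507. Number 2 of total 1 h was thus the higher one for these 3 genes, as it was for the 5 subunits. Number 1 was the higher one for Fos, with 28698 and 24514 in number 1 and 17203 and 17251 in number 2. Mef2d, at 1593 to 1811 on the 4 arrays, varied little.

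Embryonic myosin heavy chain (Myh3), named here after its values were seen, had 8487, 6477, 12569 and 11982 in total 1 h, against 3098, 2683, 3007 and 5557 in the control titled 1hr polysome (log2 difference 1.47 ± 0.44, adjusted p = 0.243). In the polysomal 1 h group the numbers differed too: Ankrd1 had 1006 and 818 in number 1 and 29809 and 30693 in number 2, while Fos, an immediate early factor, had 37782 and 26481 in number 1 and 3706 and 2507 in number 2. The 2 arrays of number 2 differed for Runx1, with 302 and 3268. Chrna1 stayed between 332 and 476 on all 4 of these arrays.

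**Figure D4:**
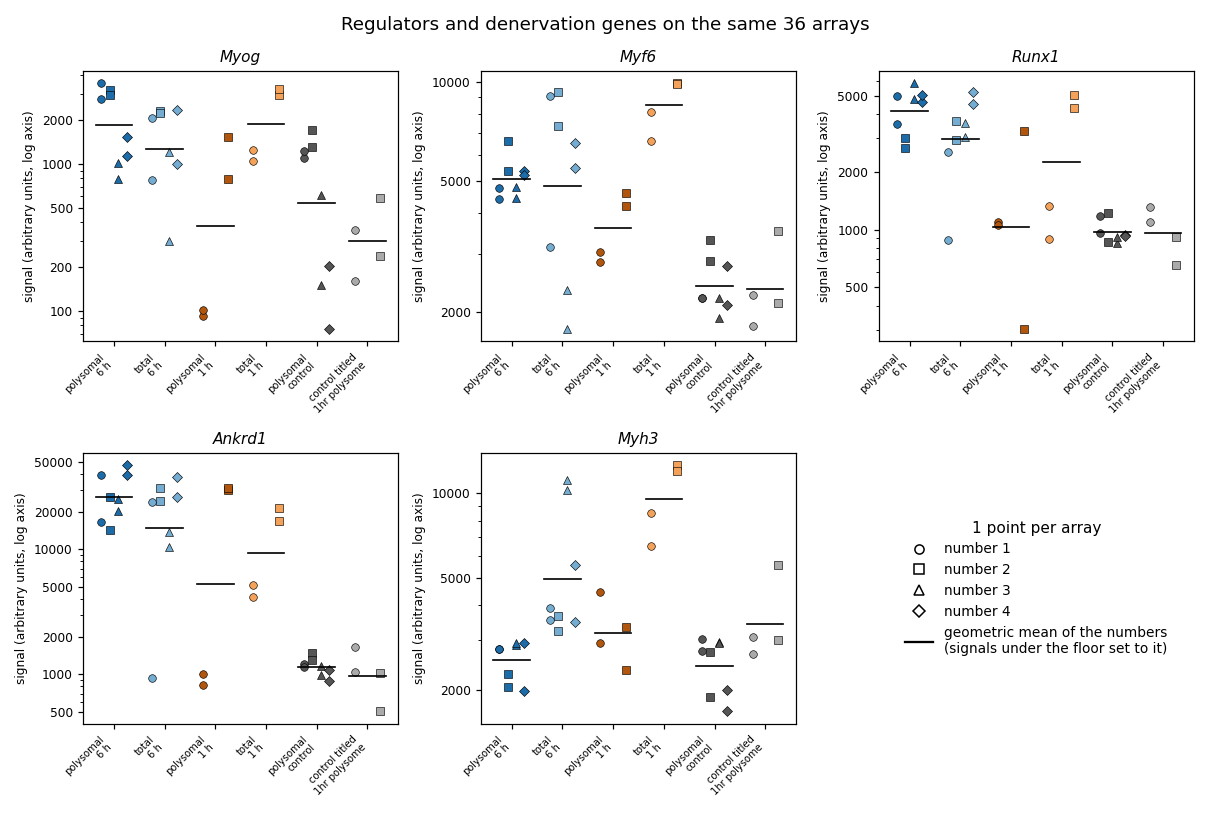
Array signals (arbitrary units, log axis) of myogenic factors (Myog, Myf6), Runx1, Ankrd1 and embryonic myosin (Myh3) in the 6 groups, with the shape giving the number and the bar the geometric mean. In total 1 h number 2 lies above number 1 in each panel, and Runx1 and Ankrd1 of polysomal 6 h lie above every array of the polysomal control.

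At 6 h, 3 of the 70 list genes rose on polysomes against the polysomal control, beside the 0.384% of genes called higher. Ankrd1 had 14371 to 46996 (median 25708) in polysomal 6 h and 892 to 1480 (median 1159) in the polysomal control, a log2 difference of 4.52 ± 0.84 (limma adjusted p = 0.0333). Fos had 9686 to 23323 (median 10975) in polysomal 6 h and 881 to 2577 (median 1695) in the polysomal control, a difference of 2.94 ± 0.58 (adjusted p = 0.0430). Runx1 had 2669 to 5839 (median 4733) and 849 to 1220 (median 932) in the same groups, a difference of 2.11 ± 0.40 (adjusted p = 0.0333). None of the 3 genes overlapped between groups, and the share of all genes without overlap was not computed here. Myf6 (1.08 ± 0.33, adjusted p = 0.289), Myod1 (0.98 ± 0.29, adjusted p = 0.273) and Myog (1.76 ± 0.77, adjusted p = 0.787) did not pass. Leaving out any 1 of the 4 numbers of the polysomal control, or number 1, 3 or 4 of polysomal 6 h, ended all 3 calls, with adjusted p from 0.0835 to 0.194, and leaving out number 2 of polysomal 6 h ended that of Fos alone (adjusted p = 0.0521). The labels state no pairing of these groups, but with the number as a block in the limma fit Runx1 did not pass (adjusted p = 0.0597).

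Between polysomal and total RNA at 6 h, 3 list genes were higher and 4 lower on polysomes. Higher were Camk2g (1.29 ± 0.24, adjusted p = 0.00646) and Fyn and Dnaja3 (1.24 ± 0.33 and 0.86 ± 0.22, adjusted p = 0.0344 and 0.0309). Camk2g encodes a calcium-dependent kinase subunit, Fyn a Src-family kinase, and Dnaja3 a chaperone that binds the agrin receptor kinase. Lower were Mef2d (−0.83 ± 0.15, adjusted p = 0.00535), a myogenic cofactor, Camk2d (−0.70 ± 0.20, adjusted p = 0.0439), Chrm3 (−0.74 ± 0.20, adjusted p = 0.0350), a muscarinic receptor, and the chaperone Hsp90b1 (−0.56 ± 0.15, adjusted p = 0.0333). The fibre marker Myh7, slow myosin, was lower as well (−1.47 ± 0.28, adjusted p = 0.00646). All 7 kept their sign in the 19 alternatives run, but the calls of Camk2g held in 18, Mef2d in 17, Fyn in 12, Dnaja3 in 11, Hsp90b1 in 6, Camk2d in 5 and Chrm3 in 3. The share of list genes called, 7 of 70, stands beside 4.38% of genes higher and 4.94% lower.

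Of the partners of the receptor at the synapse, none was called in the comparisons with total 1 h. Ache, acetylcholinesterase, differed by 0.41 ± 0.34 (adjusted p = 0.728) between total 1 h and the control titled 1hr polysome, Colq, its collagen anchor, by 0.12 ± 0.27 (adjusted p = 0.957), and Agrn, the nerve-derived organiser of receptor clusters, by 0.26 ± 0.33 (adjusted p = 0.864). Utrn, the synaptic relative of dystrophin, differed by 0.15 ± 0.20 (adjusted p = 0.878), Erbb3, a neuregulin receptor, by 0.46 ± 0.39 (adjusted p = 0.739) and Scn4a, the muscle sodium channel, by −0.05 ± 0.43. Of the neuronal nicotinic subunits, Chrna7 differed by −0.10 ± 0.26 (adjusted p = 0.962) and Chrnb4 by −0.06 ± 0.34. Musk, the agrin receptor kinase, was on the array but did not pass the filter on dim signals.

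Markers of other cells were summed beside these results. The 7 tested nerve and Schwann cell markers summed to 2821 to 3474 in total 1 h and 2358 to 3133 in the control titled 1hr polysome. The 3 tested satellite cell and myoblast markers summed to 8934 to 15111 and 19021 to 26664 in the same groups, most of it Des, desmin, which fibres express too (median 11829 in total 1 h and 21331 in the control). Myod1 and Ncam1, which also stand in the lists above, had the higher median in total 1 h, at 1140 and 397, against 837 and 270.2 in the control, and the median log2 difference of the 3 was 0.37. The 9 fibre markers summed to 63783 to 166484 in total 1 h and 164201 to 205486 in that control, with 63783 on 1 array of number 2. The 5 macrophage markers summed to 3707 to 4600 and 2991 to 3745, and to 5451 to 16654 in polysomal 6 h, against 4339 to 7650 in the polysomal control. The polysomal 6 h sums were 12277 to 16654 in numbers 3 and 4, 7716 and 8941 in number 1, and 5451 and 5512 in number 2. The median log2 difference of the 5 macrophage markers was 0.30 in total 1 h and 0.09 in polysomal 6 h, each against its control, and none was called. The 3 fibroblast and matrix markers summed to 36639 to 47583 in total 6 h and 37560 to 41993 in polysomal 1 h, both above the 18652 to 31088 of total 1 h without overlap, and to 16690 to 33086 in the control titled 1hr polysome. The 2 endothelial markers summed to 703 to 819 in total 1 h and 440 to 855 in that control. The part of these cell types in the subunit signals was not tested.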

How the data were processed

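The authors deposited linear intensity values, 1 for each of 8799 probe sets on each of 36 arrays. How they were summarised and background-corrected is not given in the sources used here. Trimmed means (2% from each end) lay between 801 and 802 on all arrays, and the deposited scaling was kept. After 59 control probe sets were left out, signals under the 40th percentile (129.5) were set to that floor and log2 was taken. Averaging the 2 arrays of each number gave 18 replicates. Probe sets that exceeded the floor on 4 or more arrays (6707 of 8740) were fitted with limma 3.58.1 in R 4.3.3 (lmFit and eBayes, 6 group means, 12 residual degrees of freedom) with Benjamini-Hochberg adjustment over all of them and a threshold of 0.05. Of the probe sets 7006 had 1 gene symbol, 308 had several and 1426 had none. Counts of genes use the brightest probe set of each of 3903 genes. Overlap was judged on the means of the numbers unless arrays are named.

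The members and the lists were chosen with earlier results of these data known. Genes outside the receptor were named where they stood in a list and passed the test (at most 5 per list and comparison), where they belonged to a fixed set of regulators and synapse partners, or as the 3 most like each subunit over the numbers, and others as stated. The fit was tested on simulated data. Deviations from the group means correlated between equal numbers of polysomal 6 h and the polysomal control, at 0.456, 0.538, 0.444 and 0.431. These groups were therefore matched by number, although the labels state no pairing. Polysomal 1 h correlated at 0.200 with total 1 h and at 0.102 with the control titled 1hr polysome. Groups of 2 numbers give the same value at both. The other pairs of groups did not all exceed 0.1, as between polysomal 6 h and total 6 h at number 1 (0.073). Alternatives covered scaling, floor, filter, arrays, blocks, controls and each number left out. The number of arrays limits the precision. Promoters came from RefSeq (GRCr8), for 5 of 5 genes.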

Additional observations from a re-analysis of the deposited data

How the results depend on the processing

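Of 635 recomputed values of the 40 subunit differences, 624 stayed within 1 SD between replicates of the reported value, 11 moved further and 0 reversed a called sign. The SD was the larger one of both groups. Leaving out 1 number cannot move a group mean that far, so those values stayed within it by arithmetic. For Chrna1 between total 1 h and the control titled 1hr polysome that SD was 1.85, and 2.43 and 5.05 counted as within 1 SD of 3.74. A reversal was scored only for called differences. These counts therefore say little about stability. Counts of calls moved as well, and the cause was not tested beyond the changed number of samples or probe sets. The number of subunits called was 1 between total 1 h and the control titled 1hr polysome, but 0 with the floor at the 20th percentile or with no filter on dim probe sets, 3 with the 36 arrays and the number as a random block, 2 with the replicate block, 3 without array 2b of that control (an alternative chosen after seeing the data), and 0 to 2 when 1 number was left out. Between polysomal 1 h and total 1 h it was 1, but 2 after quantile normalization, 3 with the random block, 2 with the replicate block and 0 to 2 when 1 number was left out. Between total 6 h and total 1 h it was 1, but 0 with the floor at the 20th percentile, 2 with the random block and 0 to 2 when 1 number was left out. Between polysomal 6 h and total 6 h it was 0, but 1 with the random block, with the replicate block or with numbers 1 and 2 alone, and 0 to 1 when 1 number was left out. Calls over all genes moved too, up to 112, 193, 10 and 629 in these 4 comparisons, in the order given. The reported fit had 2, 13, 1 and 364. Nothing about the subunits is read from the changes in their counts.

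Of the list genes, 3 were called between polysomal 6 h and the polysomal control, against 0 with no filter on dim probe sets, 1 with the first arrays, 0 with the b arrays, 9 with the random block, 0 with the control titled 1hr polysome in place of the polysomal control, 0 with numbers 1 and 2 or numbers 3 and 4 alone, and 0 to 2 when 1 number was left out. Between polysomal 6 h and total 6 h 7 were called, against 4 after scaling to the 75th percentile or with no filter, 1 with the first arrays, 14 with the random block, 11 with numbers 1 and 2 alone, 1 with numbers 3 and 4 alone, and 2 to 16 when 1 number was left out (16 without number 4 of total 6 h, 2 or 3 without its number 1 or 2 or without number 2, 3 or 4 of polysomal 6 h). Between total 1 h and the control titled 1hr polysome 0 were called, against 8 with the random block, 2 with the replicate block, 6 without array 2b and 0 to 1 when 1 number was left out. Between polysomal 1 h and total 1 h 0 were called, against 7 with the random block, 1 with the replicate block and 0 to 1 when 1 number was left out. Between total 6 h and total 1 h, polysomal 1 h and the control titled 1hr polysome, and polysomal 6 h and polysomal 1 h, 0 were called and 0 to 1 when 1 number was left out, and between both controls 0 in each case. The differences of Runx1 (1.73 to 2.49), Fos (2.69 to 3.17) and Ankrd1 (4.12 to 4.92) had the same sign in all 20 alternatives and passed the threshold in 5, 5 and 8 of them. Over all genes, calls between polysomal 6 h and the polysomal control ran from 0 to 67 in those alternatives, against 15 in the reported fit.

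Correlations by number were highest between polysomal 6 h and the polysomal control, and at most 0.250 between the other pairs of groups. Between polysomal 1 h and total 1 h the correlation was 0.200. Pairing is not established there, so the replicate block in the other comparisons rests on little more than a shared number. Over all genes, calls between total 1 h and the control titled 1hr polysome were 2 in the reported fit, 54 with the random block, 14 with the replicate block and 112 without array 2b. Between polysomal 1 h and total 1 h they were 13, 193 with the random block and 66 with the replicate block. With 2 numbers in each 1 h group, and number 2 of total 1 h carrying most of the signal, the size of the 1 h differences is known only roughly.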
